A study of Mus musculus with 10 samples.

Results

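The chromatin around the genes of 4 T helper lineage transcription factors, Tbx21, Rora, Gata3 and Bcl6, was described in regulatory T cells (Tregs) that carried or lacked the lipid kinase Vps34. The members were these genes, chosen by name. Their peaks were all peaks of the count table that lay in the gene body or within 10 kb of it on GRCm38, which gave 83 of 97385 peaks, with 54 at Rora, 15 at Gata3, 8 at Bcl6 and 6 at Tbx21. All but 1 of them, a Rora peak that is 8 bases wide, held enough counts to be tested, so that 82 of 97109 tested peaks are described. Accessibility was measured by ATAC-seq, in which the Tn5 transposase cuts and tags open DNA. Total Tregs were sort-purified as TCRb+ CD4+ Foxp3-YFP+ cells from 10-day-old mice, and all mice carried Cre recombinase driven by Foxp3, so that deletion was aimed at Foxp3-expressing cells. Control mice were Foxp3Cre with Pik3c3 +/+ or +/fl, so that some controls may have lost 1 copy of the gene for Vps34, and Vps34-deficient mice were Foxp3Cre Pik3c3 fl/fl. There were 10 libraries: from the spleen, 2 of controls and 4 of Vps34-deficient mice, and from the lung, 2 of each genotype.

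T-bet, the product of Tbx21, directs T helper 1 (Th1) differentiation and the interferon gamma program, and Gata3 directs T helper 2 (Th2) differentiation and the transcription of Il4, Il5 and Il13. RORα, the product of Rora, is a nuclear receptor that acts in T helper 17 (Th17) cells and is needed by type 2 innate lymphoid cells, and Bcl6 is a transcriptional repressor that directs follicular helper T (Tfh) differentiation. Tregs can express each of these factors next to Foxp3, which adjusts their migration and function to the type of inflammation around them, and Tregs of non-lymphoid tissues such as the lung are known for Gata3 and RORα.

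Sequencing depth per library, as the total of the peak counts, lay between 9405823 and 22439699, and replicates varied by a common coefficient of 17.8%. Levels below are counts scaled to the library total (CPM), and they count reads of all cells in a sort, so that a change in every cell and a change in the share of cells with an open site cannot be told apart. The promoters of all 6 Treg markers examined (Foxp3, Il2ra, Ctla4, Ikzf2, Cd4 and Cd3e) held a peak, with a summed level of 195 to 226 CPM in Vps34-deficient lung, 205 to 257 CPM in lung controls, 231 to 274 CPM in Vps34-deficient spleen and 245 to 268 CPM in spleen controls. Vps34-deficient lung was thus below all spleen libraries in these markers. The promoter peaks of 3 of 5 myeloid markers (Spi1, Cd14 and Itgam) summed to 25.7 to 27.4 CPM in lung controls and 16.4 to 18.4 CPM in Vps34-deficient lung, and to 22.5 to 24.9 CPM in spleen controls and 16.1 to 22.2 CPM in Vps34-deficient spleen, and Lyz2 and Csf1r had no promoter peak. Those of 3 of 5 CD8 T cell and NK cell markers (Cd8a, Cd8b1 and Klrd1) summed to 11.1 to 16.6 CPM in lung controls and 16.7 to 26.2 CPM in Vps34-deficient lung, and Ncr1 and Klrb1c had no promoter peak. At Pik3c3 itself, 6 peaks lay in the same window and 0 were called in either tissue, and its promoter peak stood at 52.5 to 67.3 CPM in all libraries. Whether these peaks cover the deleted sequence was not examined, so the genotype labels were not checked by them.

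The results turn on a few elements, and their sequences are shown first. They are the 2 Tbx21 peaks called lower without Vps34, the 3 Rora peaks with the largest called decrease in Vps34-deficient lung, and the Rora peak with the largest called difference between lung and spleen controls. Each line gives 300 bases of the plus strand of GRCm38.p6 (RefSeq assembly) around the centre of the peak, and capitals mark matches to any of 9 searched strings of letters on either strand. The windows overlap no annotated exon.
Tbx21, intronic peak 11.2 kb into the gene, chr11:97103954-97104253: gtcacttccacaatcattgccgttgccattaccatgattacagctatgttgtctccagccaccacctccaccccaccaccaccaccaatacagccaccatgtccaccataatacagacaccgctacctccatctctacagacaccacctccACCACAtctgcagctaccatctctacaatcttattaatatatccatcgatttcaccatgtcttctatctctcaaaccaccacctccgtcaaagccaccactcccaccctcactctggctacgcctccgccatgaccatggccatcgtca
Tbx21, intronic peak 6.1 kb into the gene, chr11:97109037-97109336: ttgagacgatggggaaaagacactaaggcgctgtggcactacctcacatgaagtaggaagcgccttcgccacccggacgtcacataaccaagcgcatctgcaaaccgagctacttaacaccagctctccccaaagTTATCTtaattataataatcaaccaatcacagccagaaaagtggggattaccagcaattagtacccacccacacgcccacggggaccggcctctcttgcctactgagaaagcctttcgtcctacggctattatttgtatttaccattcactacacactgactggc
Rora, intronic peak 502.6 kb into the gene, chr9:69156221-69156520: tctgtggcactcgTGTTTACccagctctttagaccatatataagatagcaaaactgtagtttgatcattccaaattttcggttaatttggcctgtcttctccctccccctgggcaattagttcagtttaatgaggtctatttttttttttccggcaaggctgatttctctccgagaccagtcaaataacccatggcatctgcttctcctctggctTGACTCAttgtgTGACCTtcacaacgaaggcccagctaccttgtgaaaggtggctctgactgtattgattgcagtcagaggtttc
Rora, intronic peak 644.3 kb into the gene, chr9:69297929-69298228: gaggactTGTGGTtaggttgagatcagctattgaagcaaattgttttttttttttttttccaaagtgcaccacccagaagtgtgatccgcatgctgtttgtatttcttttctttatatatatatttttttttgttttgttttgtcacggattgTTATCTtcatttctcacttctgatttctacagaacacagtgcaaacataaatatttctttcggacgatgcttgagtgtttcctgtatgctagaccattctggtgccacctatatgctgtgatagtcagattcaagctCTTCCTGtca
Rora, intronic peak 686.9 kb into the gene, chr9:69340494-69340793: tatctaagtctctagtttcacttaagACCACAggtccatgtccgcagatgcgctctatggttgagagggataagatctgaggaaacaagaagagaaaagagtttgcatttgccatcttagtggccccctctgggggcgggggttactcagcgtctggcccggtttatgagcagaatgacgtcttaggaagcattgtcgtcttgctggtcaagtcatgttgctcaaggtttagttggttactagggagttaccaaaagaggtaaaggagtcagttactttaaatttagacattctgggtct
Rora, peak 735.5 kb from the start, past its end, chr9:69389096-69389395: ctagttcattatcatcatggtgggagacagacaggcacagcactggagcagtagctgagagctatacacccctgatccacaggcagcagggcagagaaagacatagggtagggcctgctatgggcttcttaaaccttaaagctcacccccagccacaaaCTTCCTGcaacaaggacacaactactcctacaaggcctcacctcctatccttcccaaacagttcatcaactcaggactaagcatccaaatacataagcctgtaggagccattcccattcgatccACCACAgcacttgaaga

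The strings were TGANTCA for AP-1, AGATAA for GATA factors, GGTGTGA for T-box factors, AGGTCA for the half-site of nuclear receptors such as RORα, TGTGGT for RUNX factors, CAGGAAG for ETS factors, GGGANTTCC for NF-kB, TTCNNNGAA for STAT factors and BCL6, and GTAAACA for forkhead factors. The Tbx21 window at 11.2 kb is rich in CCA and CCACCT units, and it held 1 match, to the RUNX string at its bases 152 to 157. This string is in 26.5% of the windows of the same length around all 97250 peaks whose sequence was read. The Tbx21 window at 6.1 kb held 1 GATA string, which is in 15.1% of all windows. The Rora window at 502.6 kb held the AP-1 string (bases 216 to 222) next to a nuclear receptor half-site (bases 228 to 233), and a forkhead string. These are in 12.97%, 16.8% and 4.34% of all windows. Of the 6 Rora windows lower in Vps34-deficient lung, 5 held the RUNX string, 3 the nuclear receptor half-site and 1 the AP-1 string. Over all 54 Rora windows these counts were 18, 14 and 11. Overlaps between strings were allowed, and a match describes letters and is not a measured binding site.

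Summed over the peaks of a gene, Tbx21 and Rora differed between lung and spleen controls and Gata3 and Bcl6 did not pass the test in any comparison. Summed CPM at Tbx21 was 14.6 and 11.8 in spleen controls, 11.0, 12.2, 10.4 and 10.3 in Vps34-deficient spleen, 19.8 and 23.4 in lung controls, and 12.99 and 14.2 in Vps34-deficient lung. Both lung controls thus stood above every other library. Summed CPM at Rora was 350 and 349 in spleen controls, 354, 359, 371 and 384 in Vps34-deficient spleen, 444 and 575 in lung controls, and 419 and 382 in Vps34-deficient lung. Here too the lung controls were the highest libraries, and the 2 of them were far apart. Summed CPM at Gata3 ranged from 153 to 193, and at Bcl6 from 77.6 to 104. The groups overlapped, except that at Gata3 both Vps34-deficient lung libraries (169 and 153) lay below all 6 spleen libraries, as did the summed Treg marker promoters there, whose part in this was not tested. Levels set per kb of peak, in spleen controls, were highest at Gata3 (31.7 ± 1.21 CPM per kb, SD, n = 2), followed by Bcl6 (22.6 ± 0.70), Rora (13.4 ± 0.017) and Tbx21 (6.29 ± 0.918). In lung controls the same quantity was 29.3 ± 4.42, 22.3 ± 2.13, 19.5 ± 3.56 and 10.3 ± 1.23 (SD, n = 2), so that Bcl6 and Rora were within their spread of each other there.

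**Figure D1:**
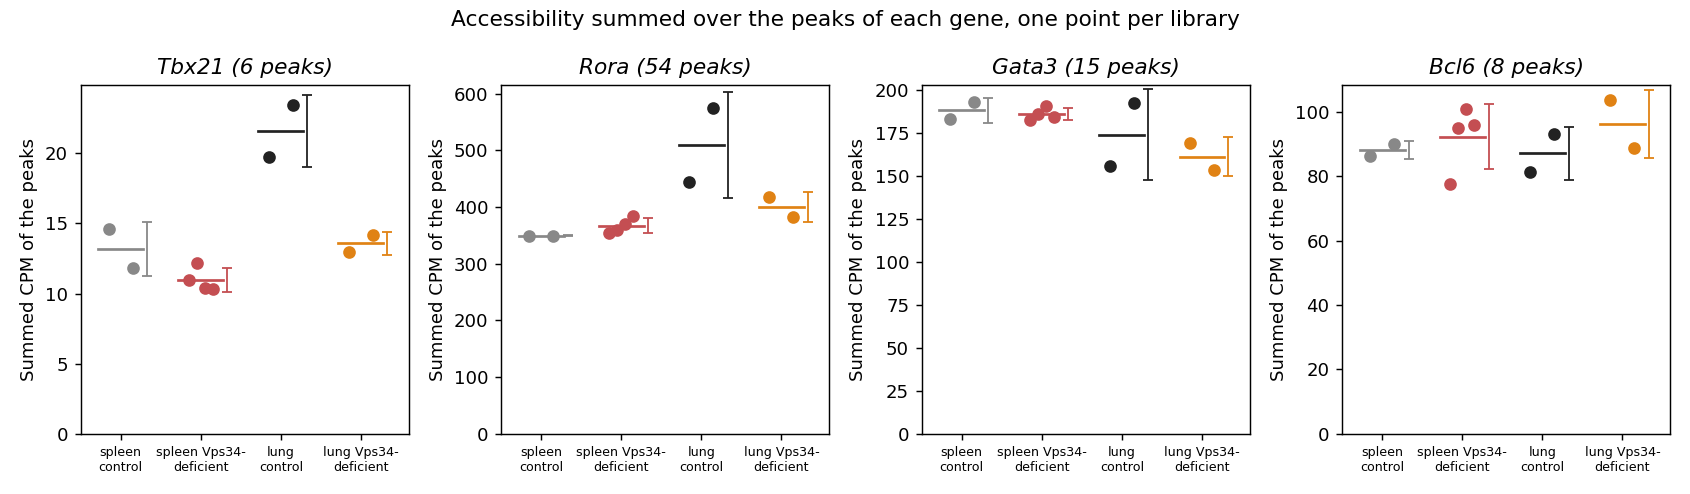
Summed CPM over the peaks in or within 10 kb of each gene, with a point per library, a line at the group mean and a bar for the SD. At Tbx21 and Rora both lung controls lie above all other libraries, whereas the groups overlap at Bcl6.

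These sums were tested with edgeR's quasi-likelihood test over 17594 protein-coding genes with Benjamini-Hochberg adjustment. A difference was called where its adjusted p was under 0.05 and its log2 fold change over 0.5 in either direction. Between lung and spleen controls the log2 fold change was 0.79 (SE 0.173, edgeR adjusted p 0.0068) at Tbx21 and 0.62 (SE 0.0979, edgeR adjusted p 0.0011) at Rora, and 7.53% of all genes were called higher. Between Vps34-deficient lung and spleen the values were 0.36 (SE 0.157, edgeR adjusted p 0.13) and 0.18 (SE 0.0844, edgeR adjusted p 0.16). In lung, Vps34-deficient minus control was -0.70 (SE 0.178, edgeR adjusted p 0.038) at Tbx21, a decrease called for 1.97% of all genes, and it was called in only 8 of 23 fits over both tissues. It was -0.37 (SE 0.0981, edgeR adjusted p 0.043) at Rora, under the fold threshold. In spleen it was -0.27 (SE 0.151) at Tbx21 and 0.07 (SE 0.0847) at Rora, with edgeR adjusted p of 0.62 and 0.86, and 0.216% of all genes were called in either direction. Averaged over both genotypes, lung minus spleen was 0.55 (SE 0.126, edgeR adjusted p 0.0032) at Tbx21, and 10.3% of all genes were called higher. It was called in 17 of 24 fits, and was 0.49 and not called with library size scaling, and 0.42 and not called without lung control replicate 2. It was also not called without a count filter, with a 50 kb window, or without spleen control replicate 2 or spleen Vps34-deficient replicate 1 or 3. The lung decrease of Tbx21 was called without spleen Vps34-deficient replicate 1 or 3 or lung control replicate 1, and not without any other library. The Tbx21 tissue difference of controls was not called without spleen control replicate 1 (0.84), spleen control replicate 2 (0.60) or lung control replicate 2 (0.56). Without lung control replicate 2, the lung genotype effect was -0.13 (edgeR adjusted p 0.54) at Rora and -0.52 (edgeR adjusted p 0.35) at Tbx21, and the tissue difference of controls at Rora was 0.33, under the fold threshold. The myeloid and CD8 and NK marker promoters above differed between the same lung groups, and their part in these values was not tested.

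The largest change of any member peak was the loss of an intronic Tbx21 element in Vps34-deficient Tregs of both tissues. The peak lies at chr11:97103728-97104479 in an intron, 11228 bases from the start of the gene, which is on the minus strand (chr11:97098071-97115331). Its level was 2.76 and 3.86 CPM in spleen controls and 0.42, 0.98, 0.45 and 0.29 CPM in Vps34-deficient spleen. It was 5.74 and 7.06 CPM in lung controls and 0.16 and 0.42 CPM in Vps34-deficient lung. No Vps34-deficient library reached the level of any control. The peak centre is the CCA-rich sequence shown above, and whether reads align equally well to such a repeat in every library was not tested. In spleen this amounted to -2.59 on the log2 scale (SE 0.398, edgeR adjusted p 0.00062), and in lung to -4.51 (SE 0.586, edgeR adjusted p 4.8e-05). The counts behind these values are small: 62 and 56 in spleen controls, 6, 16, 10 and 4 in Vps34-deficient spleen, 54 and 100 in lung controls, and 2 and 4 in Vps34-deficient lung. Because both mates of a fragment were counted, the lung comparison holds 77 control and 3 Vps34-deficient fragments, a depth-corrected ratio of 23.7 with a 95% counting interval from 7.81 to 117. The spleen comparison holds 59 and 18 fragments, a ratio of 5.93 (3.45 to 10.7). Both intervals pool the fragments of a group and leave out the spread between libraries. The peak was called lower in each tissue in all 22 fits that were run, with log2 fold changes of -3.08 to -2.18 in spleen and -5.19 to -3.85 in lung. The difference between the tissues in this effect had an interaction of -1.92 (unadjusted p 0.021 by edgeR's quasi-likelihood test) and was not called. The summed myeloid marker promoters were lower in the same groups of both tissues, as were those of Spi1 and Cd14 by their means, whereas the mean of Itgam was lower in lung (1.56 to 0.967 CPM) and not in spleen (0.962 to 1.25 CPM), and their part in these values was not tested.

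A second intronic Tbx21 peak, 6145 bases into the gene (chr11:97109078-97109294), was lower in the average over tissues. It averaged 0.659 CPM over the 10 libraries, so that its values rest on a few fragments. Its level was 1.60 and 0.41 CPM in spleen controls, 0.090 to 0.29 CPM in Vps34-deficient spleen, 1.49 and 1.69 CPM in lung controls, and 0.49 and 0 CPM in Vps34-deficient lung. Spleen control replicate 2 and lung Vps34-deficient replicate 1 lie near each other, and the other controls are far above all Vps34-deficient libraries. The average log2 fold change was -2.35 (SE 0.563, edgeR adjusted p 0.0093), not called without spleen control replicate 1 (-1.86), and neither tissue was called alone, with -2.22 in spleen and -2.57 in lung. Averaged over the tissues, 4.05% of all peaks were called lower and 3.52% higher. Among the members 6 were called lower, 2 at Tbx21 and 4 at Rora, and 1 higher, at Rora.

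The peak over the start of Tbx21 (chr11:97115122-97115456, overlapping the first coding exon) did not follow the intronic peaks. Its level was 3.65 and 2.89 CPM in spleen controls, 3.73 to 5.29 CPM in Vps34-deficient spleen, 6.80 and 6.21 CPM in lung controls and 8.45 and 8.68 CPM in Vps34-deficient lung. Every lung library stood above every spleen library, and every Vps34-deficient library above the controls of its tissue. Lung minus spleen was 1.05 (SE 0.27, edgeR adjusted p 0.0094) in controls and 1.001 (SE 0.222, edgeR adjusted p 0.0027) in Vps34-deficient cells. Each was called in 19 of 22 fits. The first was not called without spleen control replicate 1 or 2 or lung control replicate 1, and the second was 0.82 and not called in the 3 fits on the libraries numbered 1 and 2. In spleen the genotype difference of 0.43 (SE 0.236) and in lung that of 0.38 (SE 0.261) were not called, each at an edgeR adjusted p of 0.44. The remaining 3 Tbx21 peaks, at 670 and 8182 bases before the start and over a coding exon 13439 bases after it, were called in no comparison. Without the peak at 11.2 kb, the other 5 Tbx21 peaks summed to 14.0 and 16.4 CPM in lung controls and 12.8 and 13.8 CPM in Vps34-deficient lung, and in spleen to 11.8 and 7.99 CPM in controls and 9.93 to 11.2 CPM in Vps34-deficient cells.

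**Figure D2:**
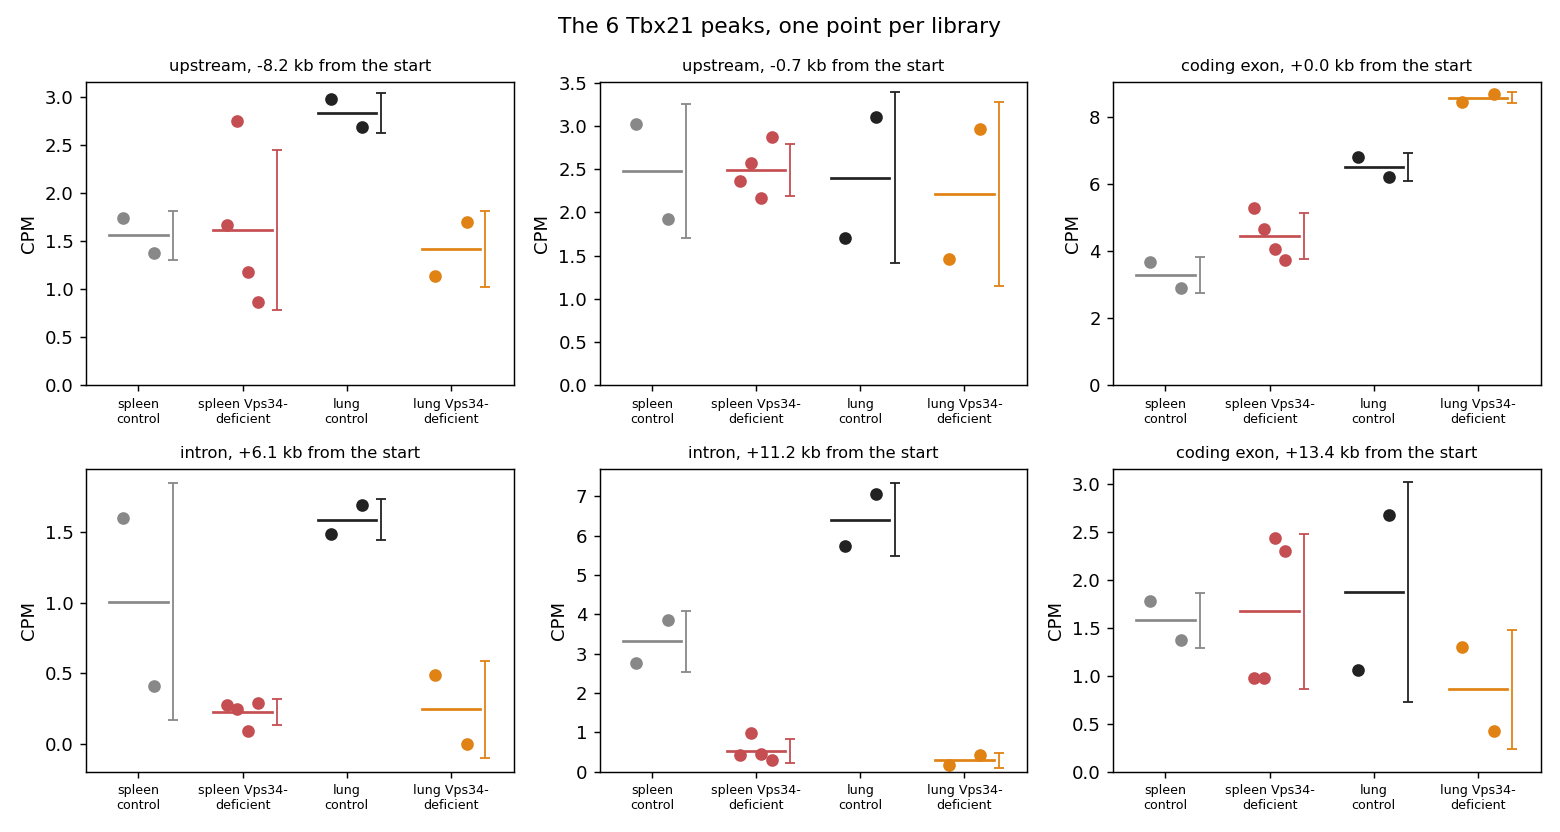
CPM at each of the 6 Tbx21 peaks, ordered by distance from the gene start, with a point per library, a line at the group mean and a bar for the SD. At the intronic peak 11.2 kb into the gene the 6 Vps34-deficient libraries sit between 0.16 and 0.98 CPM and the 4 controls between 2.76 and 7.06 CPM, whereas at the start peak all lung libraries lie above all spleen libraries.

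Rora held most of the peaks called between tissues. Of its 53 tested peaks, 21 were called higher and 0 lower in lung than in spleen controls, where 11.8% of all peaks were called higher and 3.53% lower. The median log2 fold change of the Rora peaks was 0.64, against 0.04 over all peaks, and 43 of 53 were above 0. Gata3 and Tbx21 each had 1 further peak called higher, so that 23 of 82 member peaks were. The gene spans chr9:68653786-69388246 on the plus strand, 50 of its 54 peaks lie in introns, and the last one in the window overlaps the next gene, Ice2. Of the 54 peaks, 46 lie nearest to a start of Rora, and these hold 18 of the 21 called higher in lung controls. The assignment of the others to Rora is uncertain. No peak covers the annotated start, and the promoter peak lies at an internal start (chr9:69289451-69290850). It was not called in any comparison, with 41.5 and 41.5 CPM in spleen controls, 38.5 to 44.8 CPM in Vps34-deficient spleen, 36.4 and 53.3 CPM in lung controls and 37.4 and 35.6 CPM in Vps34-deficient lung. Of the 17 tested peaks after it, 11 were higher in lung controls, and of the 35 before it, 10 were.

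The largest tissue difference at Rora lay just past the end of the gene (chr9:69388910-69389580), between Rora and Ice2, so that the assignment of this peak is uncertain. Its level was 0.45 and 0.14 CPM in spleen controls, 0.14 to 0.36 CPM in Vps34-deficient spleen, 2.55 and 4.52 CPM in lung controls and 1.46 and 0.85 CPM in Vps34-deficient lung. Every lung library stood above every spleen library. The spleen levels, all under 1 CPM, rest on a few fragments. Lung minus spleen was 3.57 (SE 0.656, edgeR adjusted p 0.00067) in controls and 2.16 (SE 0.601, edgeR adjusted p 0.014) in Vps34-deficient cells. The latter was called in 18 of 21 fits, and the lost calls include the fit without lung Vps34-deficient replicate 1. Lung was also higher in both genotypes at intronic peaks 31.1, 235.9 and 660.2 kb from the start, with average log2 fold changes of 1.504, 1.47 and 1.36. At 235.9 kb the difference between control tissues was called in 20 of 22 fits, and was 0.90 without lung control replicate 1. The highest of all Rora peaks (chr9:69034053-69034995, 380.7 kb from the start) had 53.1 and 50.4 CPM in spleen controls and 66.6 and 82.8 CPM in lung controls, a log2 fold change of 0.61 (SE 0.116, edgeR adjusted p 0.00089) that was 0.34 and not called without lung control replicate 2. Calls in the other direction were few. A peak 372.4 kb from the start had an average lung minus spleen difference of -1.21 (4.06 to 6.54 CPM in Vps34-deficient spleen against 1.95 and 1.69 CPM in Vps34-deficient lung).

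In Vps34-deficient Tregs the tissue difference at Rora was called at fewer peaks. There 9 Rora peaks were called higher and 2 lower in lung than in spleen, where 12.4% of all peaks were called higher and 4.72% lower, and the median log2 fold change was 0.11. Over all members 11 were called higher and 2 lower. Of the 21 peaks higher in lung controls, 9 were also called higher in Vps34-deficient lung. Averaged over genotypes, 18 member peaks were called higher and 2 lower in lung, of which Rora held 16 and 2, where 18.4% and 6.51% of all peaks were.

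Loss of Vps34 lowered a group of Rora peaks in lung and called none in spleen. In lung, 6 Rora peaks and the Tbx21 peak at 11.2 kb were called lower, 7 of 82 member peaks, where 3.74% of all peaks were called lower and 1.22% higher, and no member was called higher. In spleen, 1 member peak, the same Tbx21 peak, was called lower and 0 higher, where 1.02% and 0.44% of all peaks were. The median log2 fold change of the Rora peaks was -0.22 in lung and 0.17 in spleen, against 0.02 and 0.05 over all peaks. Of the 6 Rora peaks, 5 lie after the internal start, between 644.3 and 686.9 kb from the annotated start, and 5 were also higher in lung than in spleen controls. These comparisons share the lung control libraries, so that the overlap is not independent.

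The largest decrease was at chr9:69155805-69156936, in an intron. Its level was 4.55 and 5.79 CPM in spleen controls, 3.76, 5.38, 5.05 and 4.74 CPM in Vps34-deficient spleen, 9.99 and 12.5 CPM in lung controls, and 3.41 and 4.02 CPM in Vps34-deficient lung. The lung controls stand apart from all other libraries, and Vps34-deficient lung lies at or below the level of the spleen. The log2 fold change was -1.63 (SE 0.275, edgeR adjusted p 0.000755) in lung and -0.11 (SE 0.226, edgeR adjusted p 0.89) in spleen, and lung minus spleen was 1.21 in controls and -0.31 in Vps34-deficient cells. The lung decrease at this peak was called in all 22 fits that were run, with log2 fold changes of -1.68 to -1.41.

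The peak at chr9:69297773-69298384 had 9.63 and 9.37 CPM in spleen controls, 6.46 to 7.83 CPM in Vps34-deficient spleen, 17.4 and 24.3 CPM in lung controls and 11.2 and 8.996 CPM in Vps34-deficient lung. Every Vps34-deficient library lay below the controls of its tissue, and the difference was called in lung (-1.07, SE 0.218, edgeR adjusted p 0.0041) and not in spleen (-0.40, SE 0.187, edgeR adjusted p 0.34). The peak at chr9:69304335-69305045 had 28.9 and 41.2 CPM in lung controls and 21.8 and 17.3 CPM in Vps34-deficient lung, with -0.87 in lung, against 14.8 and 15.4 CPM in spleen controls. The peak at chr9:69340451-69340835 had 12.7 and 23.4 CPM in lung controls and 10.6 and 7.62 CPM in Vps34-deficient lung, with -1.01. The peaks at chr9:69314404-69315032 and chr9:69319491-69320673 had -0.91 and -0.96, and their lowest lung controls were 13.4 and 8.29 CPM, against 9.53 and 6.14 CPM in the highest Vps34-deficient lung libraries. In all 6 peaks both lung controls lay above both Vps34-deficient lung libraries. Without lung control replicate 2, the decreases at the 5 peaks after the internal start were not called, with -0.76, -0.54, -0.59, -0.48 and -0.44 in order of position, nor were they without lung Vps34-deficient replicate 2. These 5 decreases were called in 20, 20, 16, 14 and 18 of 22 fits. A single peak was higher without Vps34 in the average over tissues, 31.1 kb from the start (0.78, SE 0.213, edgeR adjusted p 0.021), where the level was 1.43 and 2.07 CPM in spleen controls and 2.89 to 3.89 CPM in Vps34-deficient spleen. It was not called without spleen control replicate 1, lung control replicate 2 or lung Vps34-deficient replicate 1.

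**Figure D3:**
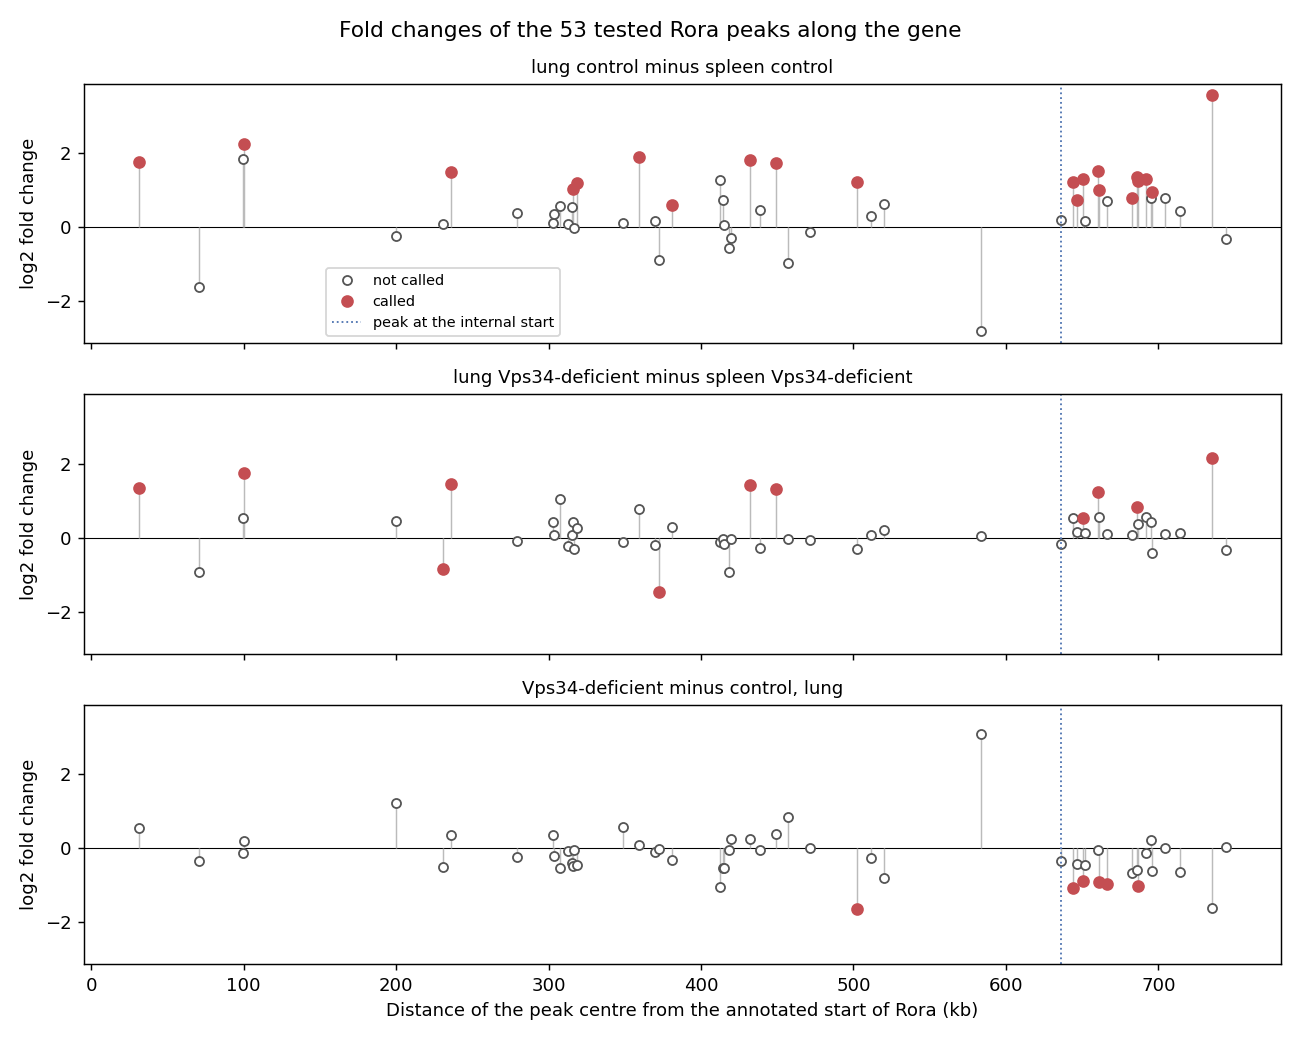
Log2 fold changes of the 53 tested Rora peaks against the distance of the peak centre from the annotated start of the gene in kb, for 3 comparisons, with called peaks filled and a dotted line at the peak over the internal start. In controls 21 peaks are higher in lung along the whole gene, and in lung 5 of the 6 peaks called lower without Vps34 lie after the internal start.

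The number of called Rora peaks rests on single libraries. Without lung control replicate 2, 1 Rora peak was called lower in lung and 13 higher in lung than in spleen controls, and without lung Vps34-deficient replicate 2, 1 was called lower in lung. Without lung control replicate 1, 7 were called lower. The tissue calls of controls fell to 9 without spleen control replicate 1 and to 14 without spleen control replicate 2. In Vps34-deficient cells, 4 were called higher without lung Vps34-deficient replicate 1, 5 without spleen Vps34-deficient replicate 2 and 6 without spleen Vps34-deficient replicate 3. Calls over all peaks moved with these libraries too, and those lower in Vps34-deficient lung also fell without lung Vps34-deficient replicate 1. Peaks higher in lung controls went from 11484 to 3121 without spleen control replicate 1 and to 6671 without spleen control replicate 2, and peaks lower in Vps34-deficient lung from 3631 to 1045 without lung control replicate 2 and to 1851 without lung Vps34-deficient replicate 2.

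Whether the effect of Vps34 differed between the tissues was tested as an interaction. No member peak was called, and 0% of all peaks were, by edgeR's quasi-likelihood test. By the Wald test of DESeq2, 0 member peaks and 35 of all peaks were called. At an unadjusted p below 0.05, 16 of 82 member peaks passed, or 19.5%, against 7.28% of all peaks, and 12 of the 16 were Rora peaks. The interaction was below 0 at all 17 tested Rora peaks after the internal start and at 45 of 53 in all, with a median of -0.43 against -0.08 over all peaks. For the summed Rora counts it was -0.45 (SE 0.13, unadjusted p 0.0033, edgeR adjusted p 0.66). This value moved with single lung libraries. It was -0.49 (edgeR adjusted p 0.033, under the fold threshold) without lung control replicate 1, -0.16 (edgeR adjusted p 0.75) without lung control replicate 2 and -0.27 (edgeR adjusted p 0.68) without lung Vps34-deficient replicate 2, and it was called in 0 of 24 fits.

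Gata3 (chr2:9857078-9890034, minus strand) was among the most open of these loci, and its sum was not called in any comparison. Its highest peak, in an intron within 1.03 kb of an internal start (chr2:9879369-9879884), had 43.9 and 48.2 CPM in spleen controls, 37.1 to 45.5 CPM in Vps34-deficient spleen, 40.3 and 43.7 CPM in lung controls and 34.9 and 30.7 CPM in Vps34-deficient lung. Both Vps34-deficient lung libraries were the lowest of all, and the lung difference of -0.38 (SE 0.127, edgeR adjusted p 0.086) was not called. An intronic peak 14.0 kb from the annotated start had 34.98 to 41.1 CPM in the 6 spleen libraries and 25.5 to 36.8 CPM in lung, with an average tissue difference of -0.29 (SE 0.0877, edgeR adjusted p 0.015), under the fold threshold. Of the 15 peaks 0 were called for genotype in either tissue, and 11 of 15 were below 0 in lung. At an unadjusted p below 0.05 by edgeR's quasi-likelihood test, 7 of 15 passed in lung, against 20.3% of all peaks. The lowest lung genotype difference was -2.11, at chr2:9860894-9861033, a peak of 1.31 CPM on average. It was called in 4 of 22 fits. The 1 called Gata3 peak, chr2:9884229-9884524, had 7.58 and 5.37 CPM in spleen controls and 8.40 and 12.3 CPM in lung controls (0.76, SE 0.251, edgeR adjusted p 0.041), and it was called in only 5 of 22 fits, with an edgeR adjusted p of up to 0.488. It lies 383 bases from the start of the non-coding gene 9230102O04Rik, so its assignment to Gata3 is uncertain.

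Bcl6 (chr16:23965052-23988852, minus strand) had 8 peaks, and 0 were called for genotype in either tissue. The peak over its start (chr16:23988450-23989178) had 19.8 and 24.4 CPM in spleen controls, 17.8 to 24.9 CPM in Vps34-deficient spleen, 19.6 and 19.6 CPM in lung controls and 21.3 and 17.8 CPM in Vps34-deficient lung, and the groups overlapped. In spleen its genotype difference was -0.06 (SE 0.148), and in lung it was -0.02 (SE 0.18). An upstream peak 8863 bases before the start had 22.3 and 21.5 CPM in spleen controls, 23.2 to 26.6 CPM in Vps34-deficient spleen, 21.1 and 26.5 CPM in lung controls and 34.9 and 27.3 CPM in Vps34-deficient lung. Every Vps34-deficient library stood above the controls of its tissue, with an average genotype difference of 0.27 (SE 0.103, edgeR adjusted p 0.10). The single called peak lay downstream (chr16:23962423-23962753), with 2.15 to 3.79 CPM in Vps34-deficient spleen and 6.98 and 5.93 CPM in Vps34-deficient lung (1.18, SE 0.275, edgeR adjusted p 0.0041), a call lost without lung Vps34-deficient replicate 1. Of the 8 peaks 5 lie nearer to the start of Gm37419 than to that of Bcl6.

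**Figure D4:**
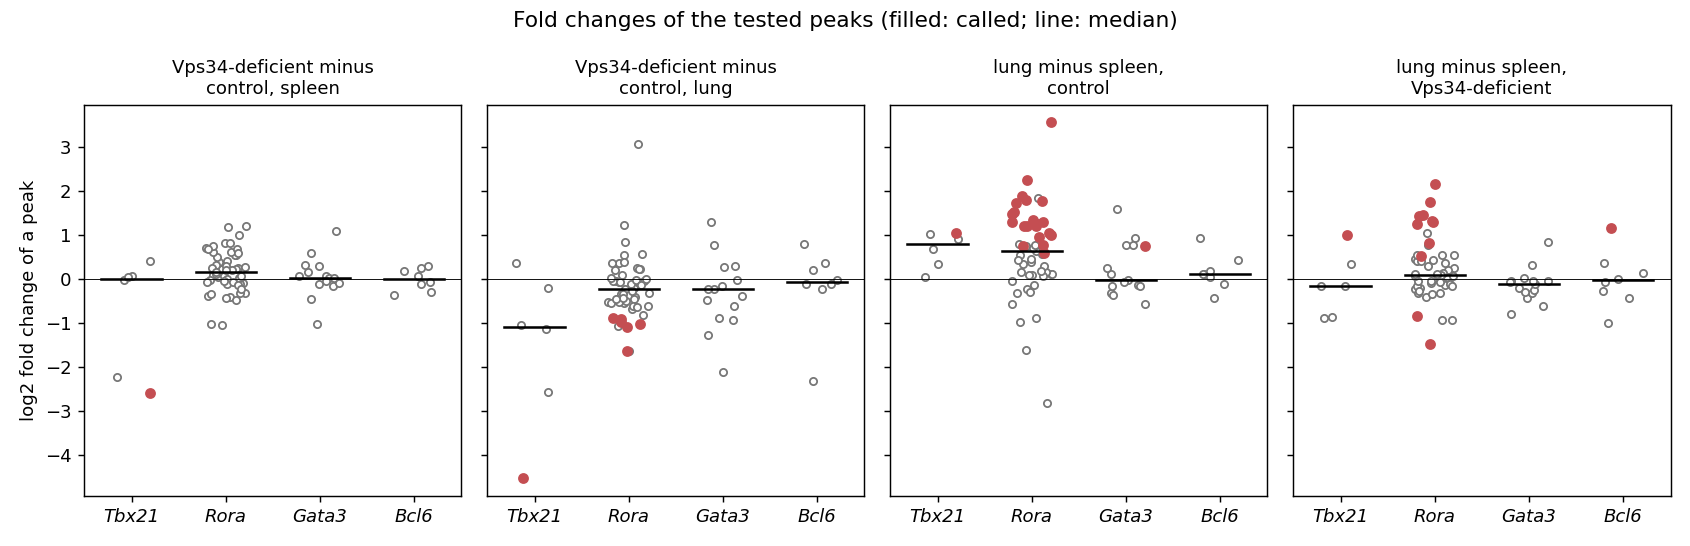
Log2 fold changes of the 82 tested peaks by gene in 4 comparisons, with called peaks filled and a line at the median. Rora peaks are shifted up between lung and spleen controls (median 0.64), and the Tbx21 peak at -4.51 in lung and -2.59 in spleen is the lowest point of both genotype panels.

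Other genes linked to the same programs were counted from lists of 9 genes each. The lists are not limited to genes that promote a program, so a share called lower does not give the direction of the program. Over all peaks, the shares called were 3.74% lower and 1.22% higher in Vps34-deficient lung, 1.02% lower and 0.44% higher in Vps34-deficient spleen, and 11.8% higher in lung than in spleen controls. The shares lower in Vps34-deficient lung were 6.25% for the Th1 list, 7.27% for Th2, 4.76% for Th17 and 11.5% for Tfh. Among 80 peaks of the Th1 list, 5 were called lower and 4 higher in Vps34-deficient lung, and 4 lower and 0 higher in Vps34-deficient spleen. The 4 higher were all at Il12rb2, the signalling chain of the interleukin 12 receptor, whose summed peaks rose by 0.59 in lung on the log2 scale (edgeR adjusted p 0.020). Summed over its 3 peaks, Cxcr3, a chemokine receptor that T-bet is known to induce, fell by 1.49 in lung (edgeR adjusted p 0.011) and by 1.16 in spleen (edgeR adjusted p 0.0496), on the log2 scale. Ifng, the cytokine of Th1 cells, had -0.69 in spleen (edgeR adjusted p 0.052) and -0.22 in lung (edgeR adjusted p 0.49). Averaged over both tissues it had -0.51 (edgeR adjusted p 0.021) and was called lower, as were 184 of 17594 genes. Among 55 peaks of the Th2 list, 4 were called lower in Vps34-deficient lung and 0 in spleen, and 9 were higher in lung than in spleen controls. The Th2 cytokine gene Il5 fell by 2.05 in lung (edgeR adjusted p 0.016), and Il4 fell by 0.87 (edgeR adjusted p 0.023). In the Th17 list, 3 of 63 peaks were called lower and 1 higher in lung, and 1 lower in spleen. Of these, 3 were at Il17a, which fell by 1.91 in lung (edgeR adjusted p 0.0014) and by 1.48 in spleen (edgeR adjusted p 0.0077). In the Tfh list, 10 of 87 peaks were called lower and 1 higher in lung and 0 in spleen, with 4 of the 10 at Tox2, 2 at Pdcd1 and 2 at Prdm1, and no Tfh gene was called by its sum for genotype. The median lung log2 fold changes were -0.08, -0.25, -0.16 and -0.13 over the peaks of the 4 lists, in the order given.

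The genes whose summed accessibility was most alike to that of a member were ranked by Pearson's r of log2 CPM over the 10 libraries, which fall into the same 4 groups. For Rora they were Ppp1r16b (r = 0.979), Dnah2 (0.974) and 9930022D16Rik (0.971), and for Tbx21 they were Tnfrsf22 (0.988), Aim2 (0.966) and Rnf125 (0.962). For Gata3 they were Tomm6 and Gm21981 (0.985 each, with the same 5 peaks) and Prickle4 (0.982), and for Bcl6 Gtpbp3 (0.938), Hnrnpl (0.904) and Tcf25 (0.898). These are the highest of 17594 genes and are given as a description.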

How the data were processed

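Per their methods, the authors used trimmomatic on the read pairs and BWA for alignment, discarded duplicates, shifted the ends for Tn5, called peaks with MACS2 and counted nucleosome-free reads in them. The submitters' processing notes name other tools (cutadapt 1.9, Picard 1.65, MACS2 2.1.0.20150603). The deposited values are whole-number counts per peak and library, not normalised, and 91.5% to 96.5% of them were even, since both mates were counted. The methods name mm9, but a peak covered 51.1% of 22028 coding starts of GRCm38, and only 1.97% to 2.81% once starts were shifted, so GRCm38 with GENCODE was used. Group sizes in spleen are swapped between the methods and the labels, and those of the labels were used. The methods count mice, but no label ties a library to a mouse, so p-values measure the spread between these libraries.

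Counts were fitted with edgeR 4.0.16 (R 4.3.3): filterByExpr, TMM, a quasi-likelihood model of 4 groups over all libraries, and tissue plus genotype for averages. Counts summed per gene were fitted likewise. Calls needed an adjusted p (Benjamini-Hochberg) under 0.05 with a log2 fold change beyond 0.5 either way. The procedure was tested on simulated data. Promoter peaks lie within 1 kb of a transcription start. For each gene, the text names the highest promoter peak and the peaks with the smallest p below 0.05 in each direction of the average effects (3 for Rora), other called peaks, and the 3 most alike genes over 1 Mb away. Members and lists were chosen with earlier results of these data known. Alternatives were other scalings, DESeq2 1.42.0, filters, halved counts, a chromosome Y covariate, loess offsets, 1 tissue alone, other windows, fold thresholds of 0 and 1, replicate blocks and leaving out each library.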

Additional observations from a re-analysis of the deposited data

How the results depend on the processing

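Values are log2 fold changes or counts of called member peaks. Among the effects and counts that answer a comparison, 877 values under the alternatives kept their direction and their side of the threshold, 51 counts moved by over 1.5 times, 31 reversed, 27 lost the call and 2 gained it. For single named peaks 590 kept both, 33 reversed and 28 lost the call. The cause of these changes was not tested except where given.

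Over fits that leave out a library each, peaks lower in Vps34-deficient lung ran from 2 to 11 and higher from 0 to 3, and spleen calls higher from 0 to 1. Peaks higher in lung ran from 9 to 23 in controls and 5 to 14 in Vps34-deficient cells, and lower ones from 0 to 4 and 0 to 2. Average genotype calls ran from 0 to 1 higher and 3 to 7 lower, and average tissue calls from 1 to 3 lower. A fold threshold of 1 left 4 peaks lower in lung, 0 higher and 2 lower for the average genotype, 10 higher and 1 lower for the average tissue effect, and 1 lower between Vps34-deficient tissues. In spleen 1 peak was called higher with DESeq2, the chromosome Y covariate, halved counts and spleen alone. With lung alone 4 were lower in lung, with a 50 kb window 1 was higher, and with loess offsets 1 was lower in lung controls than in spleen controls.

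Tbx21 in lung kept its direction and lost the gene-level call with a 1 CPM filter (-0.66), halved counts (-0.67), loess offsets (-0.64), lung alone (-0.70), median-of-ratios scaling (-0.67) and windows of 2 kb (-0.66) and 50 kb (-0.42), and ran from -0.71 to -0.52 with a library left out, called without 3 libraries and not without the other 7. A 50 kb window, which takes in other genes, gave 0.057 for the Tbx21 tissue effect in controls, -0.15 in Vps34-deficient cells and -0.057 on average. The average was 0.49 with library size scaling and 0.49 without a filter, and 0.42 to 0.63 with a library left out. The Tbx21 tissue effect in controls was 0.56 to 0.84, with both of these and 0.60 no longer called, and its average genotype effect -0.54 to -0.38, with -0.54 and -0.52 called. The Rora tissue effect in controls was 0.33 to 0.72.

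Signs near 0 turned. With a library left out, Gata3 was -0.13 to 0.13 for the interaction, -0.18 to 0.075 in lung and -0.29 to 0.036 for the tissue effect in controls, and with loess offsets 0.0095 in spleen. Bcl6 with a 2 kb window was -0.017 and -0.023 (average genotype and tissue), -0.016 (interaction), -0.026 (lung), -0.010 (spleen), -0.030 and -0.014 (tissue effect in Vps34-deficient and control cells). The last was -0.0075 with a 1 CPM filter, -0.016 with halved counts, -0.013 with library size scaling and -0.021 without a filter. With a library left out, Bcl6 was -0.017 to 0.14 (average tissue), -0.017 to 0.11 (spleen), -0.014 to 0.28 and -0.13 to 0.080 (tissue effect in Vps34-deficient and control cells). The Bcl6 start peak in lung was 0.011 with DESeq2, 0.017 with a 1 CPM filter, 0.016 with halved counts, 0.049 with loess offsets and 0.011 with median-of-ratios scaling. With a library left out it was -0.089 to 0.17 in lung, -0.26 to 0.069 in spleen, and -0.19 to 0.12 and -0.34 to 0.014 between tissues in Vps34-deficient and control cells. The Rora internal start peak in spleen was -0.012 with a 1 CPM filter, -0.011 with halved counts, -0.017 without a filter and -0.011 with spleen alone, and with a library left out -0.046 to 0.024 in spleen, -0.47 to 0.026 in lung and -0.21 to 0.36 between control tissues.

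Replicates with the same number did not deviate together (r from -0.098 to 0.015), so the numbers were not taken as pairs. Chromosome Y counts were high in control replicate 1 and Vps34-deficient replicate 2 of both tissues and low in the other replicates numbered 1 and 2, and no label says whether spleen and lung libraries of a number came from the same mouse. With the replicate block, on the 8 libraries numbered 1 and 2, 4 member peaks were lower in lung, 5 higher and 1 lower between Vps34-deficient tissues and 1 lower for the average tissue effect, Tbx21 in lung was -0.69 and no longer called, and Bcl6 in spleen (-0.019), its start peak between Vps34-deficient tissues (0.11) and the Rora start peak in spleen (-0.049) changed sign. The same 8 libraries without the block, a fit added after seeing the data, gave 7 higher and 1 lower between Vps34-deficient tissues, 1 lower for the average tissue effect, Tbx21 in lung at -0.70 and not called, -0.015 for Bcl6 in spleen, 0.11 at its start peak and -0.046 at the Rora start peak. A replicate block within genotype, also added after seeing the data and used for tissue effects only, called 20 peaks higher between control tissues, 5 higher and 1 lower between Vps34-deficient tissues and 18 higher and 1 lower for the average tissue effect, with 0.10 at the Bcl6 start peak between Vps34-deficient tissues. It called no interaction. The lung groups hold 2 libraries each, and peaks under 1 CPM rest on a few fragments, so smaller changes there were not detectable at this depth.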

Other observations

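Promoter peaks of markers of other cell types were summed in each library. Those of 4 of 5 markers of type 2 innate lymphoid cells (Il17rb, Areg, Kit and Il9r), which depend on RORα, summed to 72.1 to 84.4 CPM in lung controls and 72.9 to 80.9 CPM in Vps34-deficient lung, and to 80.0 to 88.1 CPM in spleen controls and 77.1 to 82.2 CPM in Vps34-deficient spleen. Among them, Areg had 24.2 and 27.2 CPM in lung controls and 15.3 and 21.6 CPM in Vps34-deficient lung, and Kit had 7.48 and 8.72 CPM in lung controls and 15.9 and 19.7 CPM in Vps34-deficient lung. Ptgdr2 had no promoter peak. Promoter peaks of the B cell markers Pax5 and Ebf1 summed to 28.5 to 38.5 CPM over all libraries, and Cd79a and Ms4a1 had none. Those of 3 of 5 lung epithelial markers (Epcam, Nkx2-1 and Cdh1) summed to 34.1 to 35.5 CPM in spleen controls, 28.3 to 32.4 CPM in Vps34-deficient spleen, 25.1 to 30.9 CPM in lung controls and 26.6 to 26.7 CPM in Vps34-deficient lung, so that spleen controls stood above all other libraries, and Sftpc and Krt8 had none. By group means, Epcam and Cdh1 were lower in lung, whereas Nkx2-1 was higher. Nkx2-1 had 0.849 and 0.706 CPM in control and Vps34-deficient spleen and 1.80 and 1.71 CPM in lung. Those of 3 of 5 endothelial markers (Pecam1, Cdh5 and Kdr) summed to 28.8 to 37.3 CPM, and Tek and Emcn had none. By group means, Cdh5 was higher in lung, and Pecam1 and Kdr were not. Cdh5 had 0.673 and 0.421 CPM in control and Vps34-deficient spleen and 1.73 and 2.42 CPM in lung. The part of these markers in the differences between tissues was not tested.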
